A study of Mus musculus with 10 samples.

Results

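The macrophage and monocyte genes were the 33 rows of the gene table, of 37882 rows in all, that carried the symbol of a general macrophage, monocyte, alternatively activated or lipid-associated macrophage gene. All 33 were found, with Adgre1 under its older symbol Emr1, and all 33 were among the 14063 genes that passed the filter on low counts. They were measured by poly(A) RNA sequencing of whole MCa-M3C tumours, a mouse mammary carcinoma line grown in the mammary site of FVB/N mice and assigned to treatment at about 100 mm3. The 5 TMA-ARB libraries (replicates 6 to 10) came from mice given 40 mg/kg of valsartan, an angiotensin receptor blocker, as the tumour microenvironment-activated form TMA-ARB by retro-orbital intravenous injection daily for 6 days. The 5 Control libraries (replicates 1 to 5) came from mice given the same volume of PBS on that schedule. All tumours were therefore of 1 cell line in 1 host strain. The labels give neither the age of the mice nor a statement on whether any animal gave more than 1 library. Every p-value therefore takes these libraries as its units, and one for a group difference is judged against the spread between them.

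Tissue macrophages and the monocytes that feed them depend on the receptor CSF1R and its ligands CSF1 and IL-34, and circulating monocytes enter tissue through the receptor CCR2, which binds the chemokine CCL2. Inside a tumour these cells take on a range of states, described by genes for nitric oxide production and costimulation at one end, for scavenging, arginine breakdown and matrix uptake at the other, and for lipid handling through TREM2 and apolipoprotein E. The transcription factor PU.1, encoded by Spi1, is needed to form the lineage and binds sites built around the bases GAGGAA.

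Promoter windows are shown for Mrc1, whose treated libraries stood on both sides of all controls, and for C1qb, the member that followed Csf1r most closely. Windows are also shown for Itgam, which held the motif on both strands, and for Gpnmb, which held none. Other members, among them Mertk, Mpeg1, Ccr2 and Lyz2, also held none. Each window shown holds the 250 bases before the gene's start in RefSeq, build GRCm38.p6, read 5′ to 3′ on the strand of the gene. Capitals mark GAGGAA or, for the other strand, TTCCTC.

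Mrc1: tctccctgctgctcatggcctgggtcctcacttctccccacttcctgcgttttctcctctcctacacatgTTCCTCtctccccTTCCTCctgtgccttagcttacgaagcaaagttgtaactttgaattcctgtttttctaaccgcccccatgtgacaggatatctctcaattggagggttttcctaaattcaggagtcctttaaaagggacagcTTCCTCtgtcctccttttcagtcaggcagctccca

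C1qb: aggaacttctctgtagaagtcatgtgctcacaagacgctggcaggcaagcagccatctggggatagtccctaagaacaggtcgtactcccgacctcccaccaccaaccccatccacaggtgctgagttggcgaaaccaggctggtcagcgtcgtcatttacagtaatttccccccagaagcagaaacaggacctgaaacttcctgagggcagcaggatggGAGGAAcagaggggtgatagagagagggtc

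Itgam: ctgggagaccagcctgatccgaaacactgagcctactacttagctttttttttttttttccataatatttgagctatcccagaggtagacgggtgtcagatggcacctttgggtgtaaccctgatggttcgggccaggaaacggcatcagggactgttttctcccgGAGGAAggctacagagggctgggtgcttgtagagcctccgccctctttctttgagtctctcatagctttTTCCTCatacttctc

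Gpnmb: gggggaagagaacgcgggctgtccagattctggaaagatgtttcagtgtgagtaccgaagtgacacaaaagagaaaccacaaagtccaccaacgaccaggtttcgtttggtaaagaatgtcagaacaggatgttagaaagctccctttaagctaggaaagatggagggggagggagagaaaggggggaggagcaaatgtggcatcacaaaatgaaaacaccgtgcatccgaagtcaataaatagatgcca

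The Mrc1 window (chr2:14229164-14229413, plus strand) held TTCCTC 3 times, with its first base 180, 167 and 35 bases before the start. C1qb (chr4:136886201-136886450, minus strand) held GAGGAA once, 30 bases before the start. Itgam (chr7:128062390-128062639, plus strand) held the motif once on each strand, at 84 and 15 bases, and Gpnmb (chr6:49036268-49036517, plus strand) held neither. Of the 33 genes, 21 had a window in the table, 25 windows in all because a few had several starts. The motif stood in 14 of these 25 windows (56%), against 7639 of all 32851 windows of that length (23.3%). A match describes the letters only.

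The libraries held 12742953 to 16884621 estimated reads, with a mean of 14356900 ± 1133670 under TMA-ARB and 15151100 ± 1050390 in Control (SD, n = 5 each; two-sided exact permutation test, p = 0.317). The share of reads from mitochondrially encoded genes was 2.22, 3.18, 10.5, 25.0 and 11.7% in TMA-ARB libraries 6 to 10, against 2.15, 2.07, 6.37, 6.63 and 3.75% in Control libraries 1 to 5. The means were 10.5 ± 9.12% under TMA-ARB and 4.19 ± 2.21% in Control (SD, n = 5 each), a difference of 6.31 percentage points (exact permutation p = 0.143, where 0.00794 is the smallest value these group sizes allow). That difference was 8.38 points without TMA-ARB 6 (exact permutation p = 0.0397) and 2.69 points without TMA-ARB 9. The share split the libraries within both groups, with TMA-ARB 6 and 7 and Control 1, 2 and 5 under 5% and the other 5 libraries at or above it, and member results are given on each side as well as over all 10.

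The 33 genes mostly lay slightly lower in TMA-ARB tumours, and no difference passed the test. Of the 33, 28 had a negative log2 fold change of TMA-ARB over Control (84.8%), against 47.2% of the 14063 genes tested, and their median was -0.31 against 0.021 over all genes. None of the 33 passed an adjusted p of 0.05 in edgeR's quasi-likelihood test, and neither did any other gene (0.0% called; the lowest adjusted p of any gene was 0.997). At an unadjusted p under 0.05 in that test, Apoe and Aif1 lay lower and no member lay higher, set beside 1.66% and 1.59% of all genes in each direction. In no member did the 5 TMA-ARB libraries lie wholly outside the Control libraries (0.363% of all genes lay wholly below and 0.164% wholly above). The median of the members was -0.17 without Control 2 and -0.19 without TMA-ARB 9. The number of negative members was 21 without TMA-ARB 9 and 30 without TMA-ARB 7. Many members varied together across libraries (median r of 0.748 with Csf1r, given below), so the 33 are not separate observations. In RNA from whole tumours, fewer macrophages and less of a transcript in each macrophage cannot be told apart. Nor can a change in other cells, for members that those cells also express.

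**Figure D1:**
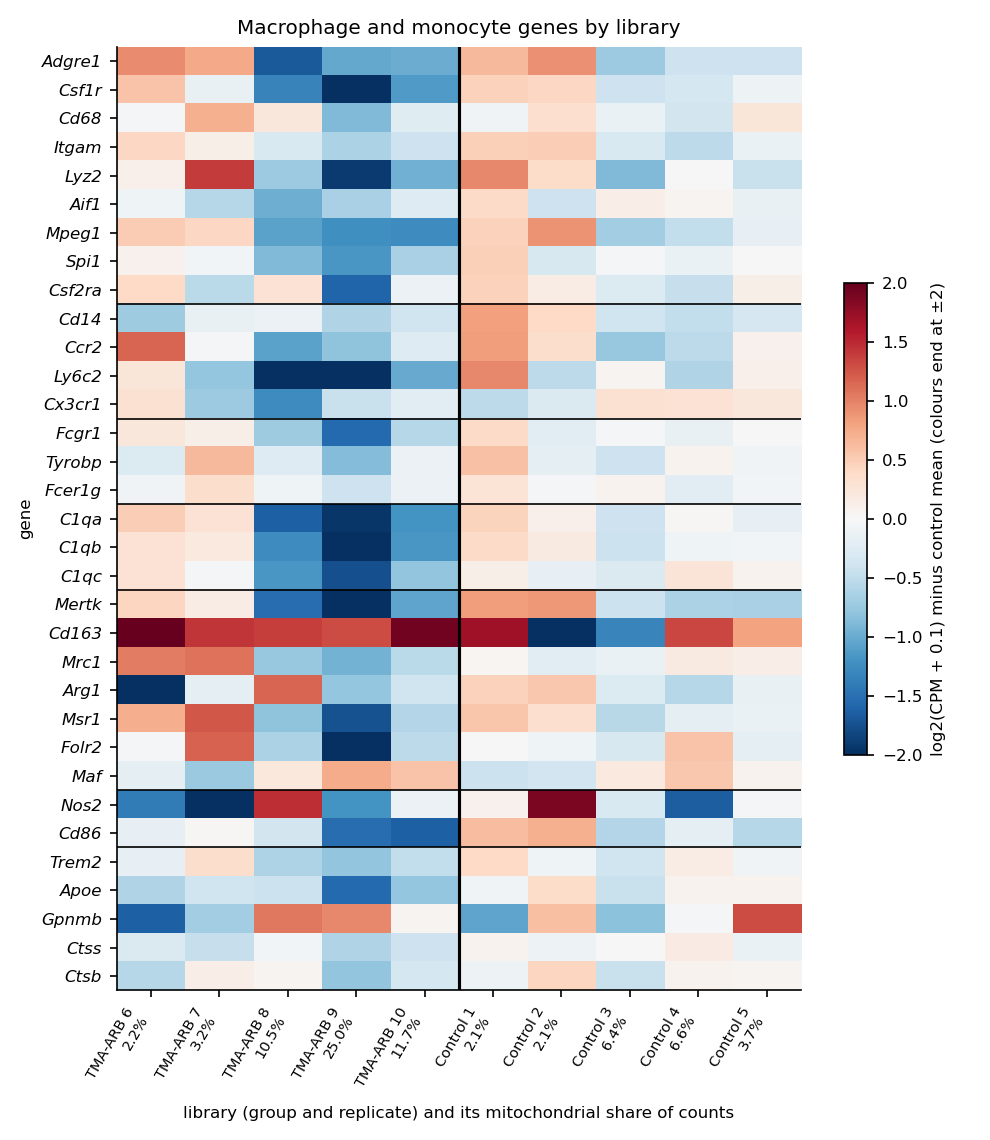
Each row is a macrophage or monocyte gene and each column a library (TMA-ARB 6 to 10, then Control 1 to 5, with its mitochondrial share), coloured by log2(CPM + 0.1) minus the Control mean of that gene, with colours ending at 2 in either direction. The TMA-ARB 9 column lies below all 5 Control libraries in 28 genes, whereas TMA-ARB 6 and 7 lie below them in 6 and 7 genes and above them in 8 and 7.

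The treated libraries differed more among themselves than the controls did. In TMA-ARB libraries 6 to 10, 6, 7, 17, 28 and 18 of the 33 genes lay below every Control library, and 8, 7, 1, 1 and 2 lay above every one. Over all genes tested the shares below every Control library were 19.4, 25.3, 21.0, 28.3 and 18.6% in the same libraries, and those above every one 18.2, 25.7, 21.3, 26.8 and 19.4%. TMA-ARB 9, which had the highest mitochondrial share, held the lowest of all 10 values for 21 of the members and for 18.5% of all genes. The SD of log2 levels was larger under TMA-ARB than in Control for 30 of 33 members (90.9%), and also for 73.3% of all genes tested. Summed over the members, the share of all reads was 0.886, 1.05, 0.617, 0.298 and 0.534% in TMA-ARB libraries 6 to 10, against 1.06, 1.07, 0.630, 0.804 and 0.842% in Control libraries 1 to 5.

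The genes that define the lineage were led in level by Lyz2, the secreted lysozyme of macrophages and neutrophils, at 1136 CPM (counts scaled to a common library size) per kilobase of exon over all libraries. On the same per-length scale Mpeg1, the pore-forming perforin-2, stood at 42.2, Csf1r at 20.0 and Adgre1, which encodes the F4/80 antigen, at 10.1. All further levels are CPM without length. Of the 9 genes in this group 8 had a negative log2 fold change, with a median of -0.19.

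Csf1r (chr18:61100598-61132149, plus strand, GRCm38) had 199, 120, 52.9, 28.0 and 61.1 CPM in TMA-ARB libraries 6 to 10, against 183, 178, 99.8, 105 and 125 CPM in Control libraries 1 to 5. The highest of all libraries was treated, but so were the 3 lowest, which were the treated libraries with the highest mitochondrial shares. The means of 92.3 ± 68.7 CPM under TMA-ARB and 138 ± 40.1 CPM in Control (SD, n = 5 each) gave a log2 fold change of -0.58 ± 0.44 (SE; edgeR unadjusted p = 0.215), which was -1.07 without TMA-ARB 6 and -0.34 without TMA-ARB 9. Adgre1 (chr17:57358691-57483527, plus strand) had 60.3, 53.0, 9.68, 15.3 and 15.7 CPM under TMA-ARB and 49.1, 59.2, 18.8, 23.4 and 23.4 CPM in Control. Both groups thus fell into high and low libraries, and the log2 fold change was -0.17 ± 0.54 (SE), turning to 0.11 without Control 2. Cd68, a lysosomal membrane glycoprotein, had 62.4, 103, 74.2, 34.1 and 53.6 CPM under TMA-ARB and 60.5, 79.7, 57.4, 48.7 and 74.7 CPM in Control. The treated libraries reached past the controls at both ends, with a log2 fold change of 0.031 ± 0.26 (SE) that ran from -0.19 to 0.20 as single libraries were left out.

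Lyz2 had 1505, 3725, 849, 375 and 724 CPM in TMA-ARB libraries 6 to 10 and 2757, 1815, 767, 1402 and 1034 CPM in Control libraries 1 to 5. Its highest and its lowest value were both treated, and the log2 fold change of -0.12 ± 0.56 (SE) turned to 0.19 without Control 1. The summed neutrophil markers were also highest in TMA-ARB 7 (863 CPM) and Control 1 (698 CPM), the libraries with the most Lyz2 in each group. Mmp9, a protease that macrophages also make, supplied 608 of the 863 CPM and 345 of the 698 CPM. The part of these markers in the Lyz2 values was not tested. Aif1, which encodes the actin-binding protein IBA1, had 53.6, 38.6, 29.1, 36.5 and 47.8 CPM under TMA-ARB against 74.4, 43.1, 62.5, 59.3 and 51.4 CPM in Control. Of the treated libraries 3 lay below every control, and the log2 fold change was -0.50 ± 0.20 (SE; edgeR unadjusted p = 0.0282). Spi1, encoding PU.1, had 52.2, 47.0, 26.7, 21.9 and 31.2 CPM under TMA-ARB and 68.6, 39.2, 48.1, 44.6 and 49.6 CPM in Control. Its 3 lowest libraries were treated, with a log2 fold change of -0.48 ± 0.25 (SE; edgeR unadjusted p = 0.0741).

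Mpeg1 averaged 156 ± 99.0 CPM under TMA-ARB and 209 ± 100 CPM in Control (SD, n = 5 each), a log2 fold change of -0.42 that was -0.72 without TMA-ARB 6 and -0.14 without Control 2. Itgam, the integrin alpha chain CD11b shared with neutrophils, averaged 66.0 ± 20.0 CPM under TMA-ARB and 74.4 ± 24.0 CPM in Control, a log2 fold change of -0.17 that was -0.34 without TMA-ARB 6 and -0.039 without Control 2. Csf2ra, the ligand-binding chain of the GM-CSF receptor, averaged 15.6 ± 7.07 CPM under TMA-ARB and 17.8 ± 4.44 CPM in Control, a log2 fold change of -0.19. None of these differences exceeded the spread between libraries.

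All 4 genes of the monocyte group had a negative log2 fold change, with a median of -0.45. Ccr2, the receptor through which monocytes leave bone marrow, had 43.7, 18.9, 9.16, 11.1 and 16.2 CPM in TMA-ARB libraries 6 to 10 and 34.8, 24.9, 11.4, 13.5 and 20.6 CPM in Control libraries 1 to 5. The treated range contained the whole control range, and the log2 fold change of -0.082 ± 0.42 (SE) ran from -0.60 without TMA-ARB 6 to 0.17 without Control 1. Ly6c2, a surface antigen of classical monocytes, had 6.78, 3.29, 1.03, 0.513 and 2.77 CPM under TMA-ARB against 11.2, 3.93, 5.95, 3.73 and 6.13 CPM in Control. It had the lowest log2 fold change of the 33, -1.09 ± 0.57 (SE; edgeR unadjusted p = 0.0769), at a low level and with reads that may be divided with its near-identical neighbour Ly6c1. Cd14, the coreceptor for lipopolysaccharide, had 81.0, 119, 121, 87.1 and 100 CPM under TMA-ARB and 233, 174, 101, 94.3 and 104 CPM in Control. Only Control 1 and 2 stood above the treated range, and the log2 fold change was -0.48 ± 0.26 (SE; edgeR unadjusted p = 0.0859). Cx3cr1, the fractalkine receptor of patrolling monocytes and some tissue macrophages, averaged 64.5 ± 25.8 CPM under TMA-ARB and 86.4 ± 21.5 CPM in Control (SD, n = 5 each), a log2 fold change of -0.42.

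The Fc receptor gene and the signalling adaptor genes had negative log2 fold changes with a median of -0.13. Fcgr1, the high-affinity IgG receptor, averaged 32.3 ± 14.4 CPM under TMA-ARB and 42.1 ± 7.28 CPM in Control (log2 fold change -0.38). Tyrobp, the adaptor DAP12 that signals for TREM2, averaged 100 ± 40.2 CPM under TMA-ARB and 110 ± 30.7 CPM in Control (-0.13). Fcer1g, the gamma chain of Fc receptors, averaged 71.8 ± 14.1 CPM under TMA-ARB and 74.6 ± 9.63 CPM in Control (-0.054; SD, n = 5 each throughout), and its highest library was only 1.70 times its lowest.

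The genes C1qa, C1qb and C1qc encode the chains of complement C1q, which tissue macrophages make, and lie next to each other within chr4:136880129-136898803 (minus strand, GRCm38). C1qa had 415, 361, 94.8, 76.3 and 128 CPM in TMA-ARB libraries 6 to 10, against 403, 316, 221, 300 and 262 CPM in Control libraries 1 to 5. C1qc had 219, 175, 79.6, 52.8 and 103 CPM under TMA-ARB and 196, 160, 147, 215 and 189 CPM in Control. In both genes TMA-ARB 6 and 7 lay at the level of the controls or above it and the other 3 treated libraries lay below every control. The log2 fold changes over all libraries were -0.48 ± 0.44 for C1qa, -0.57 ± 0.43 for C1qb and -0.52 ± 0.32 for C1qc (SE; edgeR unadjusted p = 0.297, 0.206 and 0.128). Without TMA-ARB 6 they were -0.86, -0.89 and -0.81, and without TMA-ARB 9 they were -0.25, -0.32 and -0.31.

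The genes linked to alternative activation and to resident-like macrophages divided in direction, with 3 of 7 negative and 4 positive and a median of 0.10. Mrc1 (chr2:14229392-14332057, plus strand), the mannose receptor CD206, had 227, 237, 65.9, 57.9 and 77.0 CPM in TMA-ARB libraries 6 to 10 and 115, 96.2, 102, 127 and 122 CPM in Control libraries 1 to 5. The controls lay close together while TMA-ARB 6 and 7 stood above all of them and the other 3 treated libraries below all of them, so that the log2 fold change over all libraries was 0.25 ± 0.38 (SE; edgeR unadjusted p = 0.533). Arg1, arginase 1, which turns arginine into ornithine and urea, had 25.4, 110, 280, 73.2 and 95.0 CPM under TMA-ARB and 172, 182, 103, 84.6 and 113 CPM in Control. The treated libraries held its lowest value, in TMA-ARB 6, and its highest, in TMA-ARB 8, which is the reverse of the order those libraries had for Mrc1. Its log2 fold change of -0.17 ± 0.50 (SE) was -0.79 without TMA-ARB 8 and 0.094 without TMA-ARB 6.

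Msr1, the class A scavenger receptor, averaged 143 ± 112 CPM under TMA-ARB and 133 ± 40.8 CPM in Control (SD, n = 5 each), a log2 fold change of 0.10 that turned to -0.36 without TMA-ARB 7. Mertk, a receptor for apoptotic cells, averaged 6.18 ± 4.77 CPM under TMA-ARB and 10.2 ± 5.67 CPM in Control (-0.72). Folr2, a folate receptor of resident macrophages, averaged 14.1 ± 11.9 CPM under TMA-ARB and 15.3 ± 4.07 CPM in Control (-0.11). TMA-ARB 9 was the lowest library for each of these 3 genes. Maf, a transcription factor of resident macrophages that other cells also express, averaged 237 ± 89.8 CPM under TMA-ARB and 212 ± 60.2 CPM in Control (0.16). Cd163, the haemoglobin scavenger receptor, averaged 1.84 ± 0.672 CPM under TMA-ARB and 0.836 ± 0.768 CPM in Control and was at 0 in Control 2. It had the highest log2 fold change of the 33, 1.14 ± 0.81 (SE; edgeR unadjusted p = 0.182), at the lowest level of the 33 per length, 0.245 CPM per kilobase.

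The classical activation genes were Nos2 and Cd86. Nos2, the inducible nitric oxide synthase, had 4.00, 1.71, 30.1, 4.61 and 9.93 CPM in TMA-ARB libraries 6 to 10 and 11.4, 39.8, 8.70, 3.37 and 10.5 CPM in Control libraries 1 to 5. A single library dominated each group, TMA-ARB 8 and Control 2, and the log2 fold change of -0.55 ± 0.80 (SE) was -1.55 without TMA-ARB 8 and 0.24 without Control 2. Cd86, a costimulatory ligand for T cells, had 11.0, 12.6, 9.53, 4.20 and 3.92 CPM under TMA-ARB and 19.1, 20.3, 8.17, 10.8 and 8.31 CPM in Control. TMA-ARB 9 and 10 were its lowest libraries and Control 1 and 2 its highest, with a log2 fold change of -0.69 ± 0.38 (SE; edgeR unadjusted p = 0.0945).

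All 5 lipid-associated and lysosomal genes had a negative log2 fold change, with a median of -0.31. Apoe (chr7:19696109-19699188, minus strand), the lipid carrier apolipoprotein E, had 905, 1046, 1025, 470 and 807 CPM in TMA-ARB libraries 6 to 10, against 1314, 1783, 1016, 1451 and 1455 CPM in Control libraries 1 to 5. The groups overlapped only through Control 3, which lay below TMA-ARB 7 and 8. Means of 851 ± 234 CPM under TMA-ARB and 1404 ± 277 CPM in Control (SD, n = 5 each) gave a log2 fold change of -0.72 ± 0.24 (SE), with the smallest p of the members (edgeR unadjusted p = 0.00909, adjusted p = 0.997). It ran from -0.82 to -0.56 as single libraries were left out. Ctss, the cysteine protease cathepsin S, had 487, 430, 570, 391 and 442 CPM under TMA-ARB and 624, 554, 588, 663 and 540 CPM in Control. Only TMA-ARB 8 reached the range of the controls, and the log2 fold change was -0.36 ± 0.17 (SE; edgeR unadjusted p = 0.0533).

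Trem2, the lipid-sensing receptor of lipid-associated macrophages, had 34.6, 49.5, 25.4, 22.4 and 27.8 CPM in TMA-ARB libraries 6 to 10 and 51.3, 36.6, 29.6, 43.2 and 37.2 CPM in Control libraries 1 to 5. The 3 treated libraries of highest mitochondrial share lay below every control, with a log2 fold change of -0.31 ± 0.23 (SE; edgeR unadjusted p = 0.204). Ctsb, cathepsin B, which tumour cells also make, averaged 1964 ± 525 CPM under TMA-ARB and 2400 ± 531 CPM in Control (SD, n = 5 each), a log2 fold change of -0.29. Gpnmb, a transmembrane glycoprotein of lipid-laden macrophages, had 1.33, 2.63, 9.09, 8.51 and 4.53 CPM under TMA-ARB and 2.04, 6.68, 2.42, 4.23 and 10.9 CPM in Control. Its groups shared 1 range (log2 fold change -0.016 ± 0.56, SE), and unlike most members its lowest library was TMA-ARB 6.

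**Figure D2:**
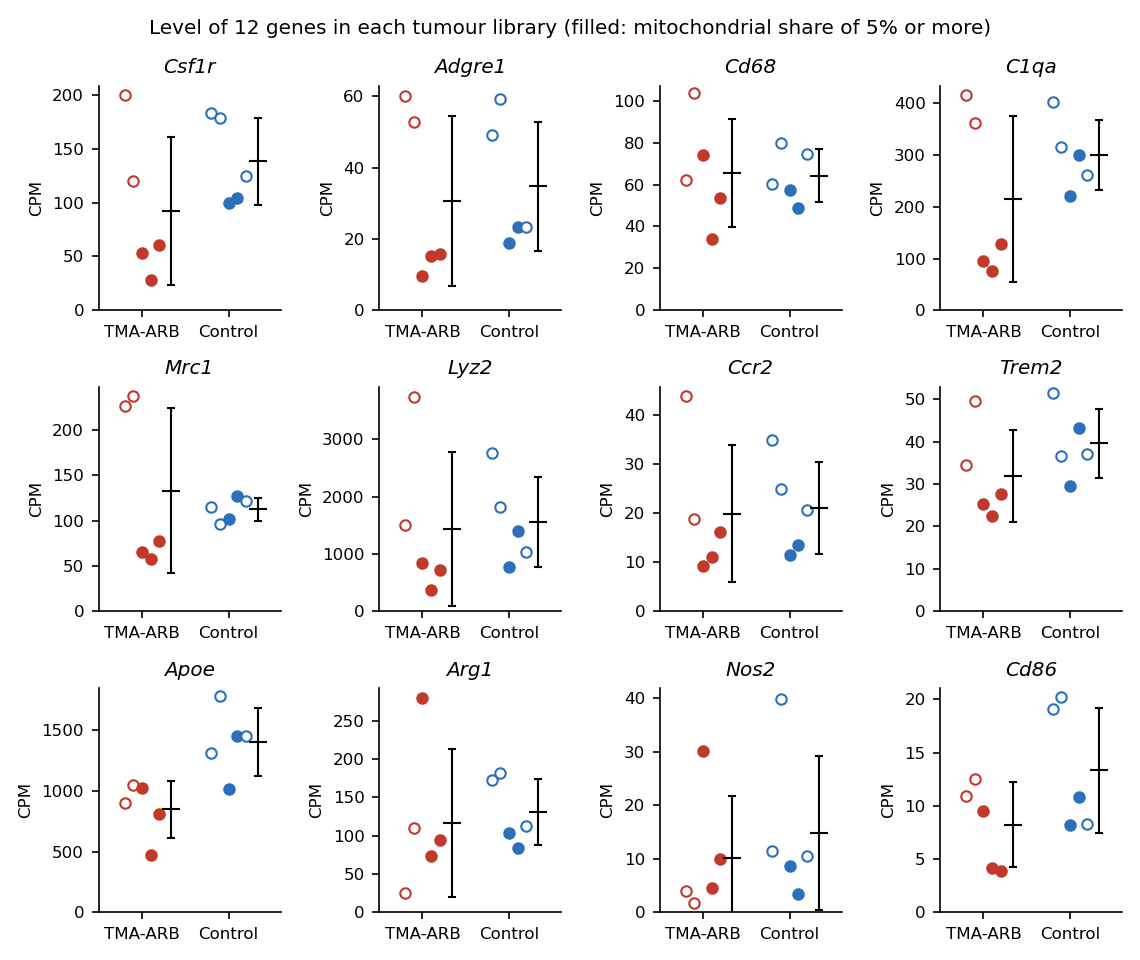
CPM of 12 of the genes in each library, TMA-ARB left of Control, with filled points for libraries at or above a 5% mitochondrial share and lines for the mean ± SD (n = 5 each, ended at 0 for Nos2). For Mrc1 the 3 filled TMA-ARB points (57.9 to 77.0) lie under all Control points (96.2 to 127) and the 2 open ones (227 and 237) over them, whereas Apoe overlaps only through Control 3 at 1016.

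The members were then read on each side of the mitochondrial split. Among the 5 libraries under 5%, 16 of 33 members were negative and the median log2 fold change was 0.0029. Among the 5 at or over 5%, 25 were negative and the median was -0.61. Without TMA-ARB 8, 9 and 10, which left 2 treated libraries, 14 were negative and the median was 0.13, and in a fit that adjusted for the log2 of that share 20 were negative and the median was -0.16. These counts and medians come without those of all genes in the same fits and do not set the members apart from other genes. The libraries over 10% were all treated, so above that level treatment and mitochondrial share cannot be told apart.

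A test of the difference between the sides, an interaction term in the edgeR fit chosen after these values were seen, called Mrc1 among 10 of 14063 genes (0.0711%). Mrc1 averaged 232 CPM under TMA-ARB and 111 CPM in Control on the side under 5%, and 66.9 CPM under TMA-ARB and 114 CPM in Control on the other side. The log2 fold changes differed by -1.83 ± 0.31 (SE; edgeR unadjusted p = 3.29e-05, adjusted p = 0.0463). The call was lost without any single library, where the difference ran from -1.98 to -1.69 and the adjusted p from 0.0590 to 0.316. At an unadjusted p under 0.05, 8 members differed between sides with a negative sign, set beside 4.62% of all genes, and Nos2 and Gpnmb with a positive one, whereas 10.6% of all genes did so in either direction. C1qa had the next smallest unadjusted p, with a difference of -1.63 ± 0.39 (SE; edgeR unadjusted p = 0.00078, adjusted p = 0.211), followed by C1qc with -1.32 ± 0.40 (adjusted p = 0.283). Apoe, in contrast, had nearly the same log2 fold change on both sides (difference -0.048 ± 0.46, SE).

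**Figure D3:**
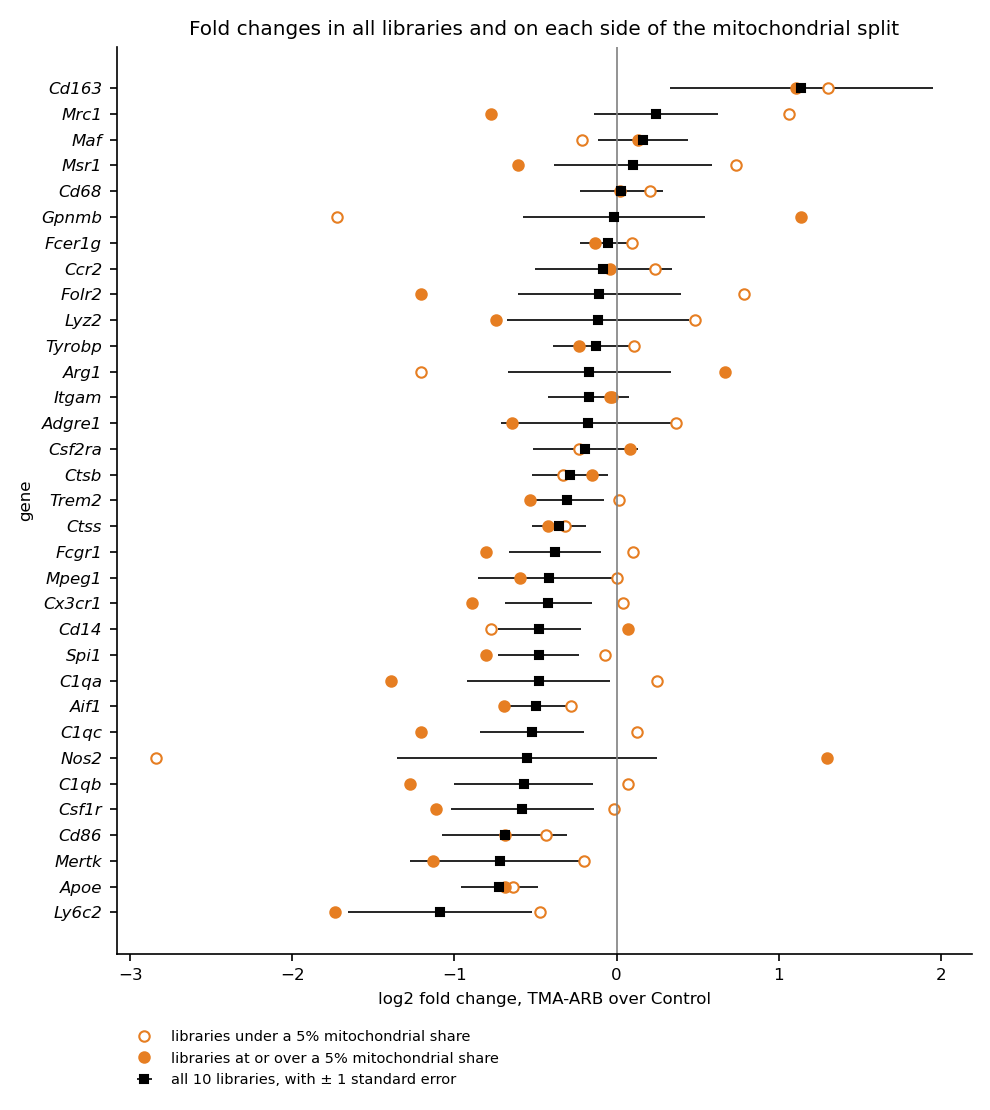
Log2 fold change of TMA-ARB over Control for the 33 genes over all libraries (black squares, bars of ± 1 SE), with open circles for the libraries under a 5% mitochondrial share and filled circles for those at or over it. The circles lie far apart for Mrc1, which was -0.78 on the side at or over 5%, and close together for Apoe.

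Of the other 32 members, 14 followed Csf1r from tumour to tumour by the test below. Over the 10 libraries, Pearson's r of log2 CPM with Csf1r was positive for 28 of these 32, with a median of 0.748 against 0.023 over the 14062 other genes. For 14 members the r passed an adjusted p of 0.05 (100000 permutations, Benjamini-Hochberg over all genes), all of them positive, set beside 6.17% of all genes positive and 11.8% in either direction. By Spearman's rho 8 passed, but the share of all genes passing by rho was not counted, so this number cannot be weighed. The median r was 0.720 with group means removed, 0.532 with the means of the mitochondrial sides removed, and 0.484 without TMA-ARB 8 and 9, the libraries farthest from the median of Csf1r. Among the 14, r with side means removed ran from 0.451 for Ccr2 (0.808 without this step) to 0.945 for C1qb (0.974). Taken against Adgre1 in place of Csf1r, 7 members passed, set beside 1054 of 14062 genes in either direction, 569 of them positive.

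C1qb followed it most closely among the members, with r = 0.974 (permutation p = 1e-05, the smallest that 100000 permutations can give, adjusted p = 0.00201) and rho = 0.952 (permutation p = 0.00012, adjusted p = 0.018), and r stayed at 0.923 without the 2 farthest libraries. Mertk had r = 0.965 (permutation p = 5e-05, adjusted p = 0.00591) and rho = 0.867 (permutation p = 0.0021, adjusted p = 0.046), with r = 0.889 without those libraries. C1qa had r = 0.956 (permutation p = 4e-05, adjusted p = 0.00511) and rho = 0.939 (permutation p = 0.00022, adjusted p = 0.0203), with r = 0.899 without them. These 3 genes were thus high and low in the same libraries as Csf1r. No such relation was seen for the nitric oxide and arginine genes, where r was 0.030 for Nos2 (permutation p = 0.938) and -0.127 for Arg1 (permutation p = 0.717), with rho of 0.055 and 0.067 (permutation p = 0.893 and 0.865). Maf ran the opposite way, with r = -0.750 (permutation p = 0.0123, adjusted p = 0.0738) and rho = -0.782 (permutation p = 0.0108, adjusted p = 0.0803), at -0.697 without the 2 farthest libraries and -0.26 with side means removed. Gpnmb had r = -0.562 (permutation p = 0.0901) and rho = -0.527 (permutation p = 0.123), at -0.29 without the 2 farthest libraries. Without TMA-ARB 8 and 9, r was 0.171 for Folr2 (0.745 over all libraries), 0.158 for Aif1 (0.590), 0.166 for Tyrobp (0.589), 0.274 for Fcer1g (0.617) and -0.085 for Cx3cr1 (0.373), none of which had passed the test over all libraries. Of all genes, those with the highest r were Tmem164 (0.985), the mast cell tryptase Tpsb2 (0.983), Ly6e (0.983), Sec61a1 (0.981), Pigt (0.977) and C1qb.

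**Figure D4:**
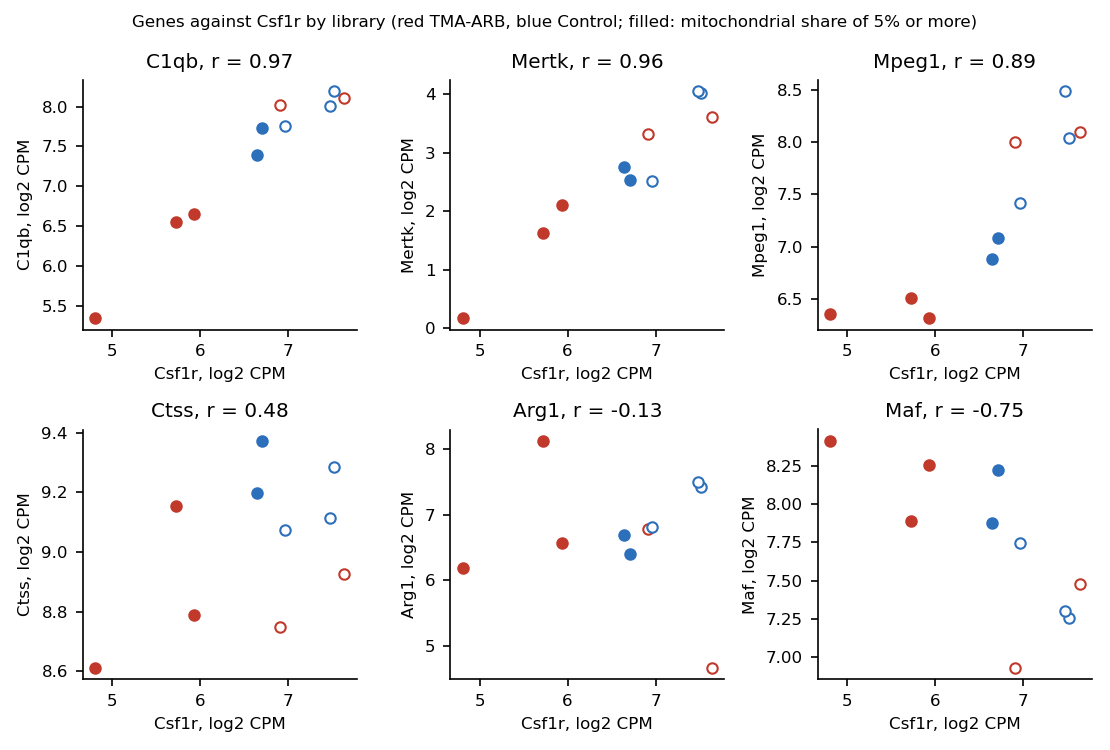
Log2 CPM of 6 genes against log2 CPM of Csf1r in the 10 libraries (red, TMA-ARB; blue, Control; filled, mitochondrial share at or above 5%). C1qb and Mertk lie along a line (r = 0.974 and 0.965), Arg1 shows no slope (r = -0.127) and Maf slopes downward (r = -0.750).

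Set relative to Csf1r in the same library, the members differed in how far they kept step with it, and these ratios carry no test. The log2 ratio of C1qb to Csf1r averaged 0.73 ± 0.25 under TMA-ARB and 0.75 ± 0.18 in Control (SD, n = 5 each). That of C1qa averaged 1.20 ± 0.31 under TMA-ARB and 1.14 ± 0.25 in Control, and that of Mertk -3.97 ± 0.34 under TMA-ARB and -3.86 ± 0.42 in Control. These 3 ratios differed between the groups by less than 1 SD. The median difference over 32 members was 0.45, below the 0.84 of all genes, since Csf1r itself lay lower under TMA-ARB; it was 0.24 without TMA-ARB 9 and 0.045 against the mean of Csf1r, Adgre1, Cd68 and Mpeg1.

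Msr1 was the only member whose ratio to Csf1r did not overlap between the groups, a gene singled out after the values were seen, and the ratio also lay wholly above Control in 0.462% of the 14062 other genes and wholly below it in 0.00711%. Its log2 ratio was 0.10, 1.34, 0.48, 0.44 and 0.48 in TMA-ARB libraries 6 to 10, against 0.04, -0.14, -0.19, 0.10 and -0.10 in Control libraries 1 to 5. The groups were parted only by TMA-ARB 6 at 0.0982 and Control 4 at 0.0975, which were nearly equal. The ratio of Mrc1 averaged 0.57 ± 0.41 under TMA-ARB and -0.26 ± 0.50 in Control, that of Cd68 -0.26 ± 0.85 under TMA-ARB and -1.08 ± 0.34 in Control, and that of Cd163 -5.29 ± 0.84 under TMA-ARB and -7.71 ± 1.75 in Control (SD, n = 5 each). These 3 members were named for the smallest p in a planned limma test that failed on simulated data and is not reported. The log2 difference between the groups was 0.83 for Mrc1 and 0.82 for Cd68, near the median of 0.84 over all genes, and 2.42 for Cd163. Cd163 was at 0 CPM in Control 2 and 0.131 CPM in Control 3. Its ratios there, -10.4 and -8.56, were therefore set largely by the prior count of 2.

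The wider pathway was read from 4 lists that hold no member. Of 14 tested growth factors, growth factor receptors and monocyte chemoattractants, 9 had a negative log2 fold change (median -0.29) and none was called. Csf1, the growth factor of the lineage, averaged 147 ± 29.2 CPM under TMA-ARB and 132 ± 19.5 CPM in Control (SD, n = 5 each; 0.16 ± 0.18, log2 and SE). Il34, the other ligand of CSF1R, averaged 31.1 ± 6.21 CPM under TMA-ARB and 31.1 ± 8.29 CPM in Control. Ccl2, the ligand of CCR2, averaged 417 ± 134 CPM under TMA-ARB and 340 ± 87.2 CPM in Control (0.30 ± 0.25). The groups overlapped for all 3 of these ligands. Csf2, which encodes GM-CSF, was too low to be tested, with 52 reads over all libraries. The chemokine Cx3cl1, the ligand of CX3CR1, had -0.56 ± 0.25 (edgeR unadjusted p = 0.0414), and Csf2rb2, a receptor chain with a near-identical neighbour Csf2rb, had -0.64 ± 0.29 (edgeR unadjusted p = 0.0449).

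Of 36 other phagocyte receptors and effectors 30 were negative (median -0.31), with Itgax, the integrin CD11c, at -0.72 ± 0.32 (edgeR unadjusted p = 0.0401). Of 26 further lipid and lysosome genes 19 were negative (median -0.28). The cholesterol exporter Abca1 had -0.85 ± 0.33, the cathepsin Ctsz -0.37 ± 0.16, progranulin (Grn) -0.46 ± 0.20 and the lysosomal acid lipase Lipa -0.61 ± 0.28 (log2 and SE; edgeR unadjusted p = 0.0229, 0.0376, 0.0408 and 0.0483). For Ctsz the groups did not overlap, at 226 ± 34.1 CPM under TMA-ARB and 292 ± 12.2 CPM in Control (SD, n = 5 each). Of 18 macrophage transcription factors 15 were negative (median -0.31). Irf8, a factor of monocytes and dendritic cells, averaged 26.2 ± 4.45 CPM under TMA-ARB and 43.9 ± 9.97 CPM in Control without overlap (-0.74 ± 0.19; edgeR unadjusted p = 0.00185, adjusted p = 0.997). Id2, an inhibitor of DNA binding by helix-loop-helix factors, had -0.70 ± 0.28 (edgeR unadjusted p = 0.0248).

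Markers of other cell types were read beside the members, and their part in the member values was not tested. All 9 pan-leukocyte genes were negative (median -0.36), with sums of 312 to 765 CPM under TMA-ARB and 507 to 804 CPM in Control, and Ptprc, which encodes CD45, averaged 64.2 ± 14.5 CPM under TMA-ARB and 72.8 ± 19.6 CPM in Control (SD, n = 5 each). Of 8 tested neutrophil genes 5 were negative (median -0.10; sums 189 to 863 CPM under TMA-ARB and 146 to 698 CPM in Control). Of 9 dendritic cell genes 8 were negative (median -0.57; 93.6 to 173 CPM under TMA-ARB and 128 to 203 CPM in Control), as were all 14 T and NK cell genes (median -0.65; 23.2 to 47.2 CPM under TMA-ARB and 33.2 to 186 CPM in Control) and 5 of 6 mast cell genes (median -0.50; 11.1 to 55.1 CPM under TMA-ARB and 15.6 to 69.0 CPM in Control). A negative median was thus common to all of these leukocyte lists. Of 6 tumour epithelial genes 5 were positive (median 0.97; 107 to 243 CPM under TMA-ARB and 84.1 to 159 CPM in Control). Fibroblast and endothelial lists had medians of -0.20 and -0.23, the 4 tested skeletal muscle genes one of -1.60, and all 13 mitochondrially encoded genes were positive (median 1.66). Among B cell genes only 1 passed the filter and among adipocyte genes none.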

How the data were processed

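Whole-tumour poly(A) RNA was sequenced from 5 TMA-ARB and 5 Control tumours with a directional kit, per the labels' protocols. The authors deposited 1 table of estimated counts per gene and library, made with Salmon and mm10 per the submitters' processing notes; the version, the annotation and the strand setting are not given in the sources used here. No deposited value was fractional, so rounding altered none, and no pair of libraries was identical (r of log2 CPM 0.848 to 0.958).

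Counts were tested with edgeR 4.0.16 in R 4.3.3 (TMM scaling, filterByExpr, robust quasi-likelihood F test, group as the only term, Benjamini-Hochberg over all 14063 genes kept of 37882, threshold 0.05). The SE of a log2 fold change is its size divided by the square root of F. CPM use TMM library sizes; correlations and ratios used log2 CPM with a prior count of 2, and levels per length divide CPM by the union of exons. Coordinates and exons came from GENCODE mouse release M21 (GRCm38), which held 37607 of the gene identifiers. Alternatives were DESeq2 1.42.0, limma 3.58.1 voom weights, RLE scaling, other filters, a mitochondrial covariate, the libraries on each side of a 5% mitochondrial share and each library left out. Permutation tests and plots used Python 3.11.15 and matplotlib 3.10.9. Each step was tested on simulated data. A planned limma test of levels relative to Csf1r failed this and is not reported.

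The members, the lists and the rule for genes named were chosen with earlier results of these data known. The rule named every member, with all library values for 12 listed genes and the 6 others of smallest unadjusted p, up to 4 genes of unadjusted p under 0.05 in each list that holds no members, Csf1, Il34, Csf2, Ccl2, Irf8 and Ptprc always, the 6 genes of highest r with Csf1r, and for the ratios the 3 members of smallest p in the limma test. Markers of other cell types are given as counts and sums. Gpnmb and Msr1 were given per library, and Ctss, C1qb and Maf plotted, outside it. Reads carry no molecular identifiers, and 3 reads stand at 0.168 to 0.308 CPM across the libraries, so the lowest members (Cd163, Ly6c2, Gpnmb) carry the largest counting error. One gene that the rule would name is not reported here.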

Additional observations from a re-analysis of the deposited data

Results flagged for a closer look

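For 3 of 72 groups of 5 libraries checked, 1 library stood apart from the other 4 by more than Dixon's 95% limit, where chance alone gives about 1 in 20. Nos2 was at 30.1 CPM in TMA-ARB 8, against 1.71 to 9.93 CPM in the other TMA-ARB libraries. Nos2 was also at 39.8 CPM in Control 2, against 3.37 to 11.4 CPM in the other Control libraries. Ccr2 was at 43.7 CPM in TMA-ARB 6, against 9.16 to 18.9 CPM in the other TMA-ARB libraries.

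For Mrc1 the log2 fold change of TMA-ARB over Control differed by -1.83 between the libraries at or over a 5% mitochondrial share and those under it (edgeR interaction, adjusted p = 0.0463), with 3 treated and 2 control libraries on the side at or over 5% and 2 treated and 3 control libraries on the other. The mitochondrial share itself was higher in the treated libraries on that side (10.5 to 25.0%) than in the Control libraries there (6.37 and 6.63%), and its part in the difference was not tested. This interaction test was chosen after the values were seen and called 10 of 14063 genes (0.0711%). The call of Mrc1 was lost whichever single library was left out.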

How the results depend on the processing

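No paired analysis was possible because the labels number the TMA-ARB libraries 6 to 10 and the Control libraries 1 to 5, with no shared number. No member was called by edgeR under any alternative run, and no gene over all libraries (457 at an unadjusted p under 0.05), by voom (1397) or in any fit that left out 1 library. DESeq2 called 2 genes with 84 adjusted p not given, and edgeR on the side at or over 5% called 4. The median member log2 fold change was -0.61 on that side, and reversed to 0.0029 under 5% and to 0.13 without TMA-ARB 8, 9 and 10, a setting chosen, like the test between the sides, after seeing the data. All 33 members kept their direction under DESeq2, RLE scaling, no filter and the table without mitochondrial genes.

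Single members reversed as follows, in log2 fold change of TMA-ARB over Control. With voom weights the values were Cd68 -0.20, Mrc1 -0.42 and Msr1 -0.51. With the mitochondrial covariate they were Adgre1 0.37, Ccr2 0.41, Itgam 0.18, Lyz2 0.40, Mpeg1 0.11, Tyrobp 0.11, Fcer1g 0.075, Csf2ra 0.12, Folr2 0.093 and Maf -0.25. Under 5% they were Adgre1 0.37, Fcgr1 0.10, C1qa 0.25, C1qb 0.069, C1qc 0.13, Ccr2 0.24, Trem2 0.013, Lyz2 0.48, Mpeg1 0.0029, Cx3cr1 0.042, Tyrobp 0.11, Fcer1g 0.096, Folr2 0.79 and Maf -0.22. At or over 5% they were Cd14 0.072, Mrc1 -0.78, Arg1 0.67, Nos2 1.30, Msr1 -0.61, Csf2ra 0.083 and Gpnmb 1.14. Without TMA-ARB 8, 9 and 10 they were Adgre1 0.70, Csf1r 0.21, Fcgr1 0.16, Mertk 0.13, C1qa 0.38, C1qb 0.22, C1qc 0.13, Ccr2 0.58, Itgam 0.22, Trem2 0.090, Lyz2 0.75, Mpeg1 0.34, Tyrobp 0.22, Fcer1g 0.15, Folr2 0.67 and Maf -0.49. The cause was not tested.

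With single libraries left out, the ranges that crossed 0 were -0.57 to 0.11 for Adgre1, -0.79 to 0.094 for Arg1, -0.60 to 0.17 for Ccr2, -0.19 to 0.20 for Cd68, -0.37 to 0.029 for Csf2ra, -0.16 to 0.035 for Fcer1g, -0.71 to 0.18 for Folr2, -0.32 to 0.43 for Gpnmb, -0.84 to 0.19 for Lyz2, -0.054 to 0.45 for Mrc1, -0.36 to 0.36 for Msr1, -1.55 to 0.24 for Nos2 and -0.38 to 0.050 for Tyrobp. Of the members that kept their direction, those that moved by over 1.5 times and are not given above were Cd14 (-0.59 to -0.22), Fcgr1 (-0.57 to -0.18), Mertk (-1.12 to -0.44), Ly6c2 (-1.68 to -0.76), Trem2 (-0.51 to -0.19), Cx3cr1 (-0.65 to -0.26), Ctsb (-0.40 to -0.17) and Maf (0.0029 to 0.33). The difference of Mrc1 between the sides ran from -1.98 to -1.69 and the number of genes called for such a difference from 0 to 19. The median member ratio to Csf1r ran from 0.24 to 0.67 and was 0.045 against the mean of 4 genes. The difference in mitochondrial share ran from 2.69 to 8.38 percentage points. With Adgre1 in place of Csf1r, 7 members passed the correlation test, set beside 1054 of 14062 genes, 569 of them positive.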
